A study of Mus musculus with 4 samples.

Results

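The genes described here are those of the numbered centrosomal proteins (Cep genes). The rule used symbol and row type alone, and the choice was made with earlier results of these data known. It took rows typed as messenger RNA in the deposited count table. Their symbols are Cep followed by a number, with or without an l and a further digit. The rule found 29 genes among 44788 rows, 23374 of them messenger RNA, and all 29 passed the filter on low counts that left 14483 genes to test. The RNA came from bone marrow stromal cells of C57BL/6J mice at passage 2, both of whose Setd2 alleles carried loxP sites (Setd2 fl/fl). The control cells received a lentivirus with GFP, and the knockout cells one with Cre recombinase, which cuts out the floxed part of Setd2. Both were kept in puromycin at 2 µg/ml for 4 days, and each had 2 libraries. With GFP as the only control, the loss of Setd2 and the presence of Cre cannot be told apart. Nothing in the labels states that the paired libraries of a group are separate cultures or mice. The p-values therefore rest on library-to-library spread, part or all of which may be technical.

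The centrosome organizes microtubules around a pair of centrioles. Centrioles are copied in each cell cycle, are joined by a linker until mitosis, and, in cells that leave the cycle, can serve as the base of a primary cilium. Cep proteins act at every one of these steps; they are named for their location and approximate mass, not for a shared sequence or function. Setd2 encodes the methyltransferase that trimethylates lysine 36 of histone H3 along transcribed genes. Setting Cre against GFP asks which Cep genes differ after deletion, and whether a common shift goes with transcript length or with the genes of dividing cells.

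Library totals lay between 12371994 and 14315903 counts. Setd2, which the labels give as knocked out in the Cre libraries, fell from 1400 and 1250 counts with GFP to 551 and 468 with Cre. The log2 fold change was -1.60 with a standard error of 0.08 (edgeR adjusted p = 3.65e-15). Reads from exons outside the floxed part count too, so these values do not measure intact transcript. One control library, GFP replicate 2, stood apart: 7.45% of its counts fell on Rn18s-rs5, a ribosomal RNA gene, against 1.21% to 2.07% in the other 3 libraries. Of 11 stromal markers, such as Col1a1 and Pdgfrb, 10 were high enough to test, while Lum had between 0 and 2 counts per library. The 11 summed to 15593 and 15472 CPM (counts scaled to the TMM-adjusted library size) with GFP and 19433 and 20462 CPM with Cre. Of the 10 tested, 3 rose (Col1a1, Col1a2 and Thy1) and 1 fell (Cxcl12), or 40%, against 6.97% of all tested genes. Yet 6 of the 10 were below 0, with a median log2 fold change of -0.07. Macrophage markers were present as well, with summed levels of 2065 and 2142 CPM with GFP and 2437 and 2437 CPM with Cre, over 11 markers of which none was at 0. Of these, 3 rose and 1 fell (36.4%, against 6.97% of all tested genes). The 7 endothelial markers summed to 11.1 and 10.4 CPM with GFP and 8.86 and 8.43 CPM with Cre. Of the 7, 5 were high enough to test, and none passed. The part of cell makeup in the Cep values was not tested.

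Most Cep genes were slightly lower in Cre, but few passed the test one by one. Of the 29, 2 fell (Cep55 and Cep170) and none rose at an adjusted p of 0.05 over all tested genes. That is 6.90% of the Cep genes, against 6.97% of all tested genes called in either direction, 3.22% called lower and 3.74% called higher. At an unadjusted p under 0.05 there were 7 Cep genes, or 24.1%, against 20.9% of all tested genes. In direction the Cep genes leaned one way: 24 of 29 (82.8%) had a log2 fold change below 0, against 51.1% of all tested genes. Libraries of 1 group could differ likewise: for Cre replicate 2 over Cre replicate 1, 22 of the 29 were below 0. For GFP replicate 2 over GFP replicate 1, 10 were. The median of the Cep genes for Cre over GFP was -0.12, against 0.00 (-0.0045) over all tested genes. Both Cre libraries lay below both GFP libraries for 13 Cep genes (44.8%), where this held for 25.5% of all tested genes, and above them for 1 (3.45%, against 24.5%). DESeq2 called 1 Cep gene, Cep55, of the 22 for which it gave an adjusted p.

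**Figure D1:**
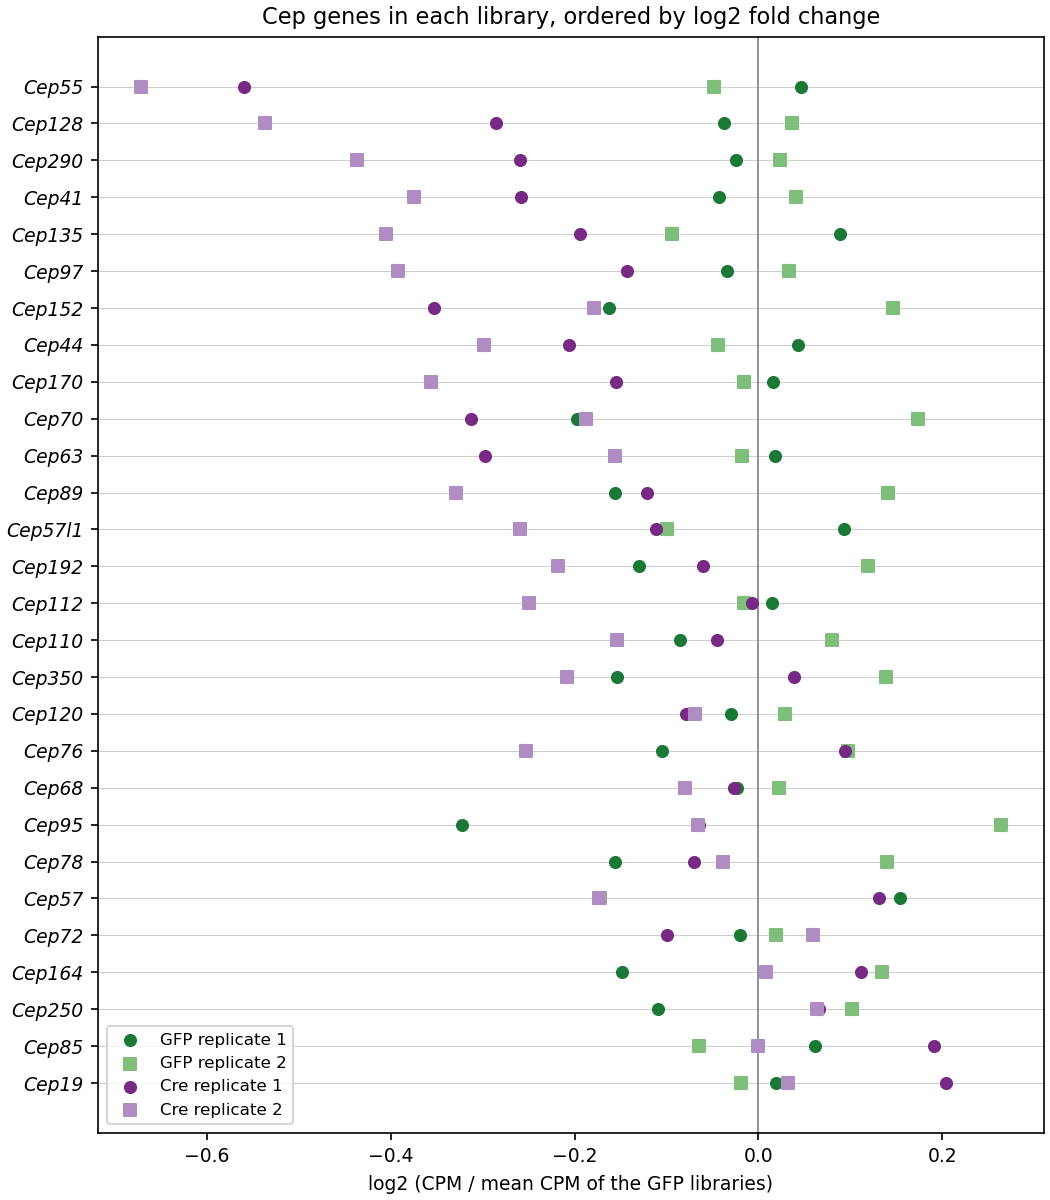
Level of 28 of the 29 Cep genes in each of the 4 libraries, as log2 of CPM over the mean CPM of the GFP libraries (x axis), with genes ordered by log2 fold change (y axis). The Cre libraries (purple) of Cep55 sit far to the left of its GFP libraries (green), whereas for genes such as Cep95 and Cep57 libraries of the same group lie farther apart than the groups.

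Cep55, the largest difference, encodes the midbody protein that recruits the machinery for the final cut between daughter cells. It had 18.6 and 17.5 CPM in the GFP libraries (245 and 205 counts) and 12.2 and 11.3 CPM in the Cre libraries (177 and 164 counts). Both Cre libraries were below both GFP libraries, and the gap between the groups was wider than that between libraries of a group. The log2 fold change was -0.62 with a standard error of 0.12, a fall of 34.7% (edgeR adjusted p = 0.000806). The gene lies on chromosome 19 from 38054970 to 38074425 (GRCm38). DESeq2 called it too (adjusted p = 0.0485). Without GFP replicate 1 or GFP replicate 2 the value was -0.57 or -0.66, with adjusted p-values of 0.249 and 0.239, in fits that called 12 and 0 genes in all.

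Cep170, which encodes a microtubule-binding protein of the subdistal appendages of the mother centriole, was the most abundant Cep gene and the other one that passed. Its GFP libraries held 145 and 142 CPM (1906 and 1667 counts). The Cre libraries held 129 and 112 CPM (1863 and 1622 counts). The groups did not overlap, although the Cre libraries differed from each other by more than Cre replicate 1 differed from the lower GFP library. The log2 fold change was -0.25 with a standard error of 0.07, a fall of 16.04% (edgeR adjusted p = 0.0188). This call did not hold in DESeq2 (adjusted p = 0.0881) or with scaling by library size alone (adjusted p = 0.157). Without Cre replicate 2 the log2 fold change was -0.15 (adjusted p = 0.528).

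Promoter windows are shown for Cep55, the gene with the largest difference, for Cep170, the other gene that passed, and for Cep152, which holds both CCAAT and CHR matches and did not pass. Promoters of genes expressed at mitosis commonly carry CCAAT boxes and a CHR element (TTTGAA or TTCGAA), and those of genes expressed at S phase carry E2F sites. The windows, from RefSeq on GRCm38.p6, run from 250 bases before to 50 bases after an annotated start, along the gene's strand. Capitals mark matches on either strand to CCAAT, to both spellings of the CHR element, or to any of 3 E2F sites (TTTCCCGC, with its variants TTTGGCGC in some promoters and TTTCGCGC in others). A TTTGAA on the opposite strand is printed as its reverse complement. The Cep55 window is chr19:38054791-38055090 (plus strand), that of Cep170 is chr1:176813904-176814203 (minus strand), and that of Cep152 is chr2:125625064-125625363 (minus strand).
Cep55: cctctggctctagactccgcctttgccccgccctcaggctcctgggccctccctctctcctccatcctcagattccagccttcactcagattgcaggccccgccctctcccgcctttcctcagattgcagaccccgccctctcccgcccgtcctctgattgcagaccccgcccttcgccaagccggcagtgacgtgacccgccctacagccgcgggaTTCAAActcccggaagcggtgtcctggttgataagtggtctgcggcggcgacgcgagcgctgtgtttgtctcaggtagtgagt
Cep170: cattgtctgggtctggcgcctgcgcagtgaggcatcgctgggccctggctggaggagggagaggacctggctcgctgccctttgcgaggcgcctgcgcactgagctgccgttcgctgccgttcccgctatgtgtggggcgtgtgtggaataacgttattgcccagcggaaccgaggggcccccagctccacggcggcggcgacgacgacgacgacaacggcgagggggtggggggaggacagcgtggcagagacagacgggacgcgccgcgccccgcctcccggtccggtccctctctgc
Cep152: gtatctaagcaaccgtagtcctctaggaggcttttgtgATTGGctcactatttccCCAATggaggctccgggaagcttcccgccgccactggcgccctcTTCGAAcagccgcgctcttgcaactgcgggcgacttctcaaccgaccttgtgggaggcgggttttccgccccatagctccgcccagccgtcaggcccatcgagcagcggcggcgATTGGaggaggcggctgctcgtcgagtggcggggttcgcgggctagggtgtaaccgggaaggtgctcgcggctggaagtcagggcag
The Cep55 window holds a single match, TTTGAA on the opposite strand 33 bases before the start, and no CCAAT. For another annotated Cep55 start, with its window at chr19:38054734-38055033, this match lies 24 bases after the start. This Cep170 window holds none of the 6 motifs, while another annotated Cep170 start, at chr1:176807075-176807374, has TTTGAA on the opposite strand 60 bases before it. Cep152 has CCAAT at 3 places and TTCGAA 151 bases before its start.

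Windows were found for 24 of the 29 Cep genes, and some genes have several starts whose windows overlap. A CHR letter match was present in 11 of 33 Cep windows (33.3%), against 14% of 13620 windows of tested genes and 26 of 33 windows (78.8%) of a list of 36 mitosis genes. CCAAT was present in 15 Cep windows (45.5%), against 37.4% and 75.8%, and an E2F letter match in 2 (6.06%), Cep63 and Cep128, against 3.30% and 3.03%. CCAAT and CHR matches in the same window were found in 5 Cep windows (15.2%), against 5.62% of windows of tested genes and 66.7% of those of mitosis genes. A match is a description of these letters, not a site in use.

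Genes for copying and building centrioles were nearly all slightly lower, and none passed. Of 11 tested, 10 had a log2 fold change below 0 and the median was -0.19. Cep135, a protein of the cartwheel on which new centrioles form, had 14.3 and 12.6 CPM with GFP and 11.8 and 10.2 CPM with Cre. Both of its Cre libraries lay below both GFP libraries, as for 25.5% of all tested genes. Its log2 fold change was -0.30 (adjusted p = 0.167). Cep152 and Cep192 are the scaffolds that bring the duplication kinase Plk4 to the centriole. Cep152 had 8.52 and 10.6 CPM with GFP and 7.47 and 8.43 CPM with Cre, so that its GFP libraries differed by more than the nearest libraries of the groups. Its log2 fold change was -0.26 (adjusted p = 0.336), and Cep63, which binds Cep152, stood at -0.23 (adjusted p = 0.229). For Cep192 the groups overlapped, with 44.0 and 52.3 CPM against 46.2 and 41.4 CPM (log2 fold change -0.13).

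The remaining genes of this group ranged more widely in level than in difference. Cep97, which with Cp110 caps the growing centriole, stood at -0.26, Cep44 at -0.25 and Cep57l1 at -0.19. Cep120, needed for centriole elongation, was the third most abundant Cep gene per kilobase of transcript (11.8 CPM per kilobase). It had 54.0 and 56.3 CPM with GFP and 52.2 and 52.6 CPM with Cre, a log2 fold change of -0.07 with a 95% interval from -0.22 to 0.08. Cep76, which limits repeated duplication, was at -0.06 and Cep57 at -0.02. Cep57 had 23.1 and 18.4 CPM with GFP and 22.7 and 18.4 CPM with Cre, so that 1 library of each group was high and the other low. Cep85, at 0.10, was the only one of the 11 above 0.

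Genes of the centriole's appendages and of the cilium spread most. Of 11 tested, Cep170 fell, 8 including it were below 0, and the median was -0.10. Cep128, a partner of centriolin at the subdistal appendages, had 10.4 and 10.9 CPM with GFP and 8.72 and 7.33 CPM with Cre, a difference of -0.40 in log2 (adjusted p = 0.0800). Cep290, a protein of the ciliary transition zone, had 14.99 and 15.5 CPM with GFP and 12.7 and 11.3 CPM with Cre, a difference of -0.34 (adjusted p = 0.0801). Cep41, which acts in modification of ciliary tubulin, had 11.6 and 12.3 CPM with GFP and 9.97 and 9.19 CPM with Cre, a difference of -0.31 (adjusted p = 0.153). In these 3 genes both Cre libraries lay below both GFP libraries, and none passed. The same order held for 4 of the 11 genes of this group (36.4%), against 25.5% of all tested genes. Opposite-strand exons of 4930430F08Rik cover 7.58% of the exon bases of Cep290, and the counting is not stated to use strand, so reads of the 2 genes may be mixed, in a share that was not measured.

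The other appendage and cilium genes lay on both sides of 0, and none passed. Cep164, the distal appendage protein that starts cilium formation, had 60.4 and 73.4 CPM with GFP and 72.2 and 67.2 CPM with Cre, overlapping groups with a log2 fold change of 0.06 and an interval from -0.10 to 0.23. Cep89, another distal appendage gene, stood at -0.22, with GFP libraries of 13.2 and 16.2 CPM that overlapped the Cre libraries. Centriolin, listed as Cep110 and named Cntrl in RefSeq, was at -0.10, Cep350 at -0.08 and Cep78 at -0.05. Cep19, whose protein lies at the centriole and the base of the cilium, was at 0.12, the highest value of the 29 (adjusted p = 0.696). Cep19 was the only Cep gene with both Cre libraries above both GFP libraries, at 9.34 and 8.29 CPM against at most 8.22 CPM.

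The linker genes did not share a direction. Cep250 encodes C-Nap1, which anchors the fibres that join the centrioles. It had 107 and 124 CPM with GFP and 121 and 121 CPM with Cre, so that both Cre libraries lay between the GFP libraries (log2 fold change 0.07, interval -0.07 to 0.21). Opposite-strand exons of 6430550D23Rik cover 11.1% of its exon bases. Cep68, another linker protein, stood at -0.05. Among the rest, Cep70 (-0.24) and Cep72 (-0.02), genes of pericentriolar proteins, and Cep95 (-0.05) and Cep112 (-0.12), whose roles are less clear, did not pass. Cep112 was the least abundant, with 21 to 26 counts per library, where counting error alone is about 20.7% of a value. Opposite-strand exons overlap 5.53% of the exon bases of Cep70.

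**Figure D2:**
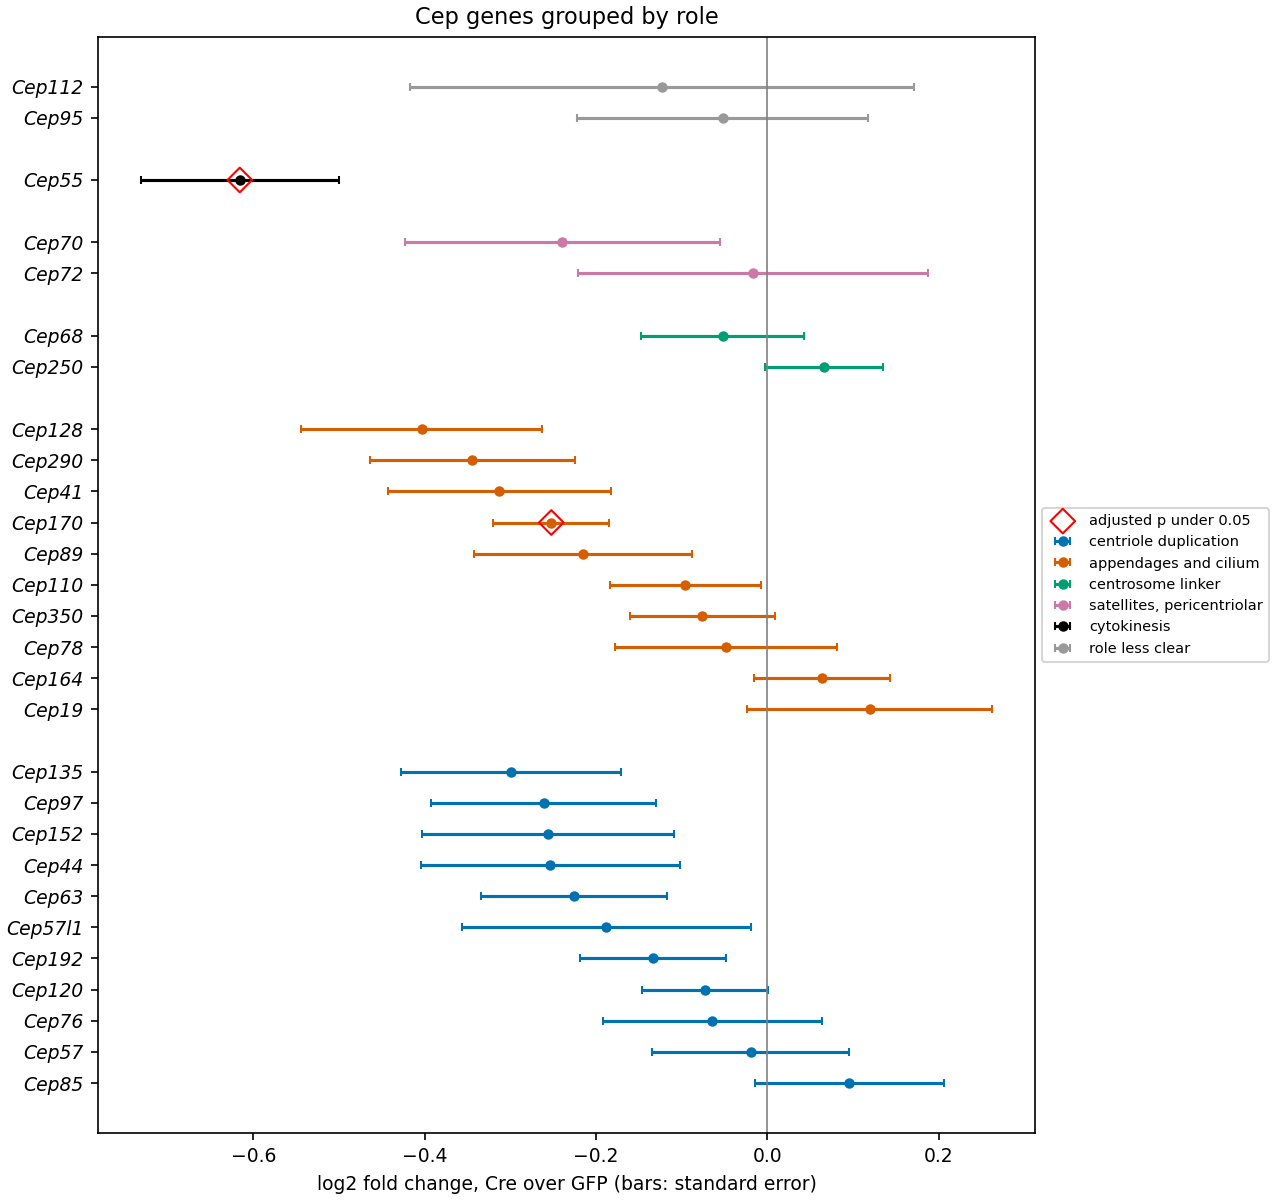
Log2 fold change of Cre over GFP (x axis) with its standard error (bars) for 28 of the 29 Cep genes, grouped and coloured by role (y axis); red diamonds mark an adjusted p under 0.05. Cep55 (-0.62) lies apart from the rest, which run from -0.40 (Cep128) to 0.12 (Cep19).

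The common shift was close in size to a difference between libraries of the same group. The median log2 ratio of the 29 Cep genes was 0.07 between GFP replicate 2 and GFP replicate 1, and -0.11 between Cre replicate 2 and Cre replicate 1. Between libraries of different groups it ran from -0.02 (Cre replicate 1 over GFP replicate 1) through -0.09 and -0.12 to -0.25 (Cre replicate 2 over GFP replicate 2). Across groups, from 17 (Cre replicate 1 over GFP replicate 1) to 26 (Cre replicate 2 over GFP replicate 2) of the 29 genes were below 0. Within groups, 22 were for Cre replicate 2 over 1 and 10 for GFP replicate 2 over 1. These pairs share libraries. The summed level of the Cep genes was 802 and 867 CPM with GFP and 807 and 748 CPM with Cre, so the groups overlapped. Without GFP replicate 2 the median was -0.05, and without GFP replicate 1 it was -0.20, with 19 and 26 of the 29 genes below 0.

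**Figure D3:**
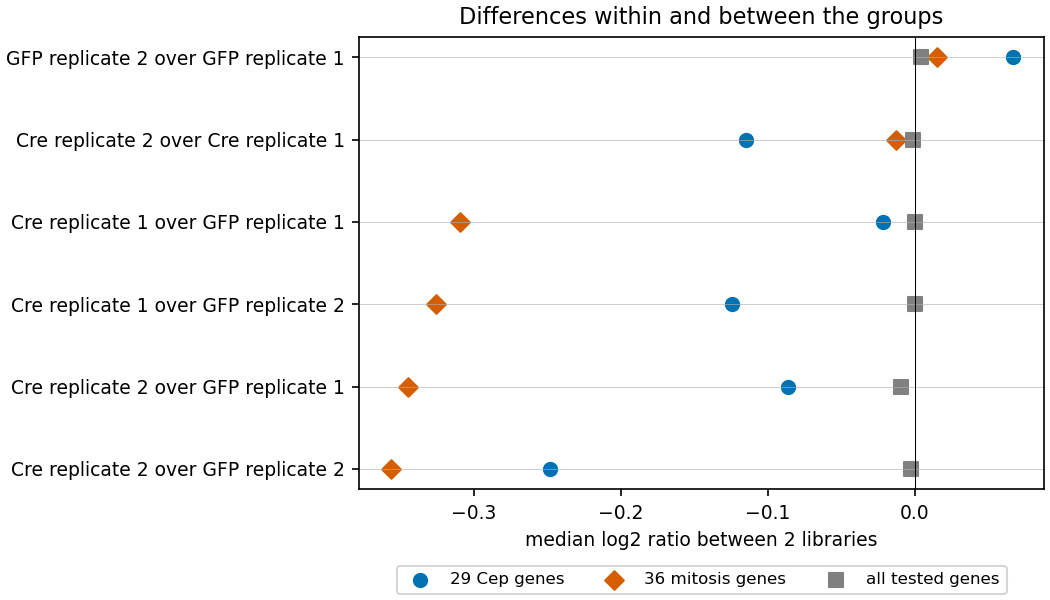
Median log2 ratio between 2 libraries (x axis) for each pair of libraries (y axis), for the 29 Cep genes, 36 mitosis genes and all tested genes. The mitosis genes lie near 0 within a group and between -0.31 and -0.36 across groups, while the Cep genes differ within the Cre group (-0.11) by as much as between some libraries of different groups.

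Fold change had a weak correlation with transcript length among the Cep genes, and a larger one with the span of the gene. Their longest GENCODE M21 transcripts ran from 1718 bases (Cep19) to 13307 bases (Cep350), with a median of 4804 against 3282 over all tested genes. Among the 29, log2 fold change and transcript length had a Spearman correlation of -0.12, and of -0.04 with coding length. Without Cep55 these were -0.18 and -0.13. Over 13830 tested genes with a known length the correlation with transcript length was -0.22. With the span of the gene on the genome, introns included, it was -0.29 among the 29 Cep genes and -0.41 without Cep55, against -0.20 over all tested genes. Among the 29, the span correlation was 0.15 for GFP replicate 2 over 1 and -0.20 for Cre replicate 2 over 1. Between single libraries of different groups it ran from -0.07 (Cre replicate 1 over GFP replicate 2) to -0.25 (Cre replicate 2 over GFP replicate 2). All tested genes split by length into 4 equal classes had medians of 0.06, 0.02, -0.01 and -0.06 from short to long, and 1.33%, 2.00%, 3.07% and 6.77% of them were called lower. The Cep genes numbered 1, 8, 5 and 15 in these classes. The 8 genes between 2058 and 3282 bases, Cep55 among them, had a median of -0.20 and were all below 0. Of all tested genes in that class, 46.1% were below 0. The 15 genes of the longest class had a median of -0.13 with 12 below 0, where 66.4% of all tested genes in the class were. Against a smoothed trend of fold change on length over all tested genes, the Cep genes lay lower by 0.07 in the median, with 22 of 29 below the trend (75.9%, against 49.7% of all tested genes).

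The length trend over all tested genes was also present between libraries of one group. Its Spearman correlation was 0.20 for GFP replicate 2 over GFP replicate 1 and -0.21 for Cre replicate 2 over Cre replicate 1, of about the size of that between the groups. Between single libraries of different groups it ran from -0.04 (Cre replicate 1 over GFP replicate 1) to -0.32 (Cre replicate 2 over GFP replicate 2). Genes share their library in each of these correlations and are not independent.

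The correlation with GC content was larger in size than those with transcript length or gene span. The GC content of the longest transcript ran from 31.0% (Cep44) to 57.7% (Cep164), and its Spearman correlation with log2 fold change was 0.51 among the 29 genes and 0.30 over all tested genes. With the longest coding transcript in its place the values were 0.47 and 0.31. The 14 Cep genes under the median GC content of 46.6% were all below 0, with a median of -0.23. The 14 above it had a median of -0.05, and all 5 Cep genes with a positive value were among them. This split was chosen after the values were seen. Between libraries of a group the correlation of the Cep genes with GC content was 0.35 for GFP replicate 2 over 1 and 0.21 for Cre replicate 2 over 1. For single libraries of different groups it ran from 0.20 (Cre replicate 1 over GFP replicate 2) to 0.56 (Cre replicate 2 over GFP replicate 1). Over all tested genes the correlation was 0.18 for GFP replicate 2 over 1 and 0.21 for Cre replicate 2 over 1. When each library's trend in length and GC content was removed before the test, the median of the Cep genes went from -0.12 to -0.05, with 21 of 29 below 0. Cep55 stood at -0.58 (adjusted p = 0.000121) and Cep170 at -0.16 (adjusted p = 0.0268) in that fit.

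**Figure D4:**
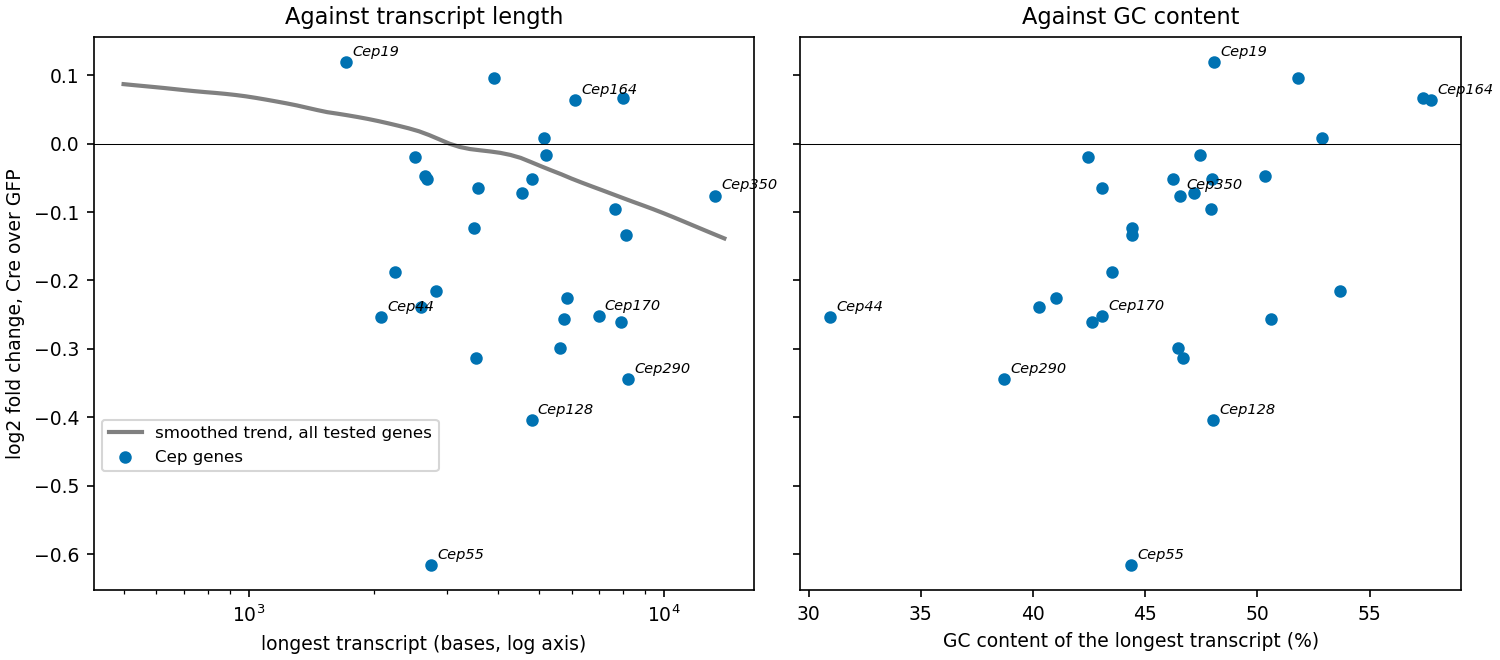
Log2 fold change of Cre over GFP (y axis) of the 29 Cep genes against the length of the longest transcript in bases (left, log axis, with the smoothed trend of all tested genes in grey) and against its GC content in percent (right). Of the 29 genes 22 lie below the grey line, short and long ones among them, and the 5 Cep genes above 0 are among the richer ones in GC.

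Most genes of mitosis fell, in a list chosen with earlier results of these data known. Of 36 mitosis and G2/M genes, a list that does not include Cep55, 23 fell (63.9%, against 3.22% of all tested genes) and none rose. All 36 were below 0, and the median was -0.33. Anln (-0.55) and Prc1 (-0.40), which act in cytokinesis, Cenpf (-0.68), a kinetochore protein gene, and Kif20a (-0.42), a kinesin of the midzone, had the smallest adjusted p-values. Their summed level was 1464 and 1511 CPM with GFP and 1200 and 1154 CPM with Cre. Unlike the Cep genes they differed little within groups, with median log2 ratios of 0.01 and -0.01 between the libraries of a group, and from -0.31 to -0.36 between libraries of different groups. Their median after removal of length and GC trends was -0.30. Fewer dividing cells and less RNA per cell cannot be told apart in such bulk libraries. Of 30 S-phase genes, 4 fell (Usp1, Pole, Clspn and Hells) and none rose, with a median of -0.11. Those 4 are 13.3% of the list, against 3.22% of all tested genes called lower. Without Cep55, 1 of 28 Cep genes was called (3.57%) and their median was -0.11. With scaling by library size alone 9 of the mitosis genes were called, DESeq2 called 8, and without either GFP library none was.

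Other genes of the centrosome and cilium were called lower at a share near that of all tested genes. Of 87 tested genes in 4 lists, 2 fell (2.30%, against 3.22% of all tested genes). None rose, against 3.74% of all tested genes, and the median was -0.06. Both calls were in the list of appendage, satellite and linker genes. Nek2, the kinase that dissolves the centrosome linker at mitotic entry, went from 20.1 ± 1.19 to 14.2 ± 0.378 CPM (mean ± SD, n = 2; log2 fold change -0.50, edgeR adjusted p = 0.00336). Pcm1, the scaffold of centriolar satellites, went from 82.7 ± 2.14 to 69.7 ± 6.62 CPM (log2 fold change -0.25, edgeR adjusted p = 0.0345). None of 17 core centriole genes passed (median -0.09, 11 below 0), with the abundant Cetn3 at -0.11 and Cetn2 at -0.01. None of 20 pericentriolar and gamma-tubulin genes passed (median -0.06), with Akap9 at -0.07 and Tubgcp6 at 0.02. None of 35 genes of cilium transport passed, and these were balanced around 0 (median -0.01, 19 below 0), with Ift46 at 0.16 and Ift172 at 0.04.

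Further Cep proteins are listed in the table under other symbols or with a suffix that the rule leaves out. None of these 10 genes passed, and their median was -0.05 with 7 below 0. Cep85l was lowest at -0.49 (adjusted p = 0.0959), and Cep170b, the abundant paralogue of Cep170, stood at 0.08. Cep295, listed as 5830418K08Rik, was at -0.16, Cep162 (4922501C03Rik) at -0.14, Cep83 (Ccdc41) at -0.06 and Cep126 (AK129341) at -0.06. Cep43 (Fgfr1op) was at -0.05, Cep20 (Fopnl) at -0.04, Cep131 (Azi1) at 0.05 and Cep295nl (BC100451) at 0.05. With them, 2 of 39 genes were called (5.13%, against 6.97% of all tested genes). Of the 39, 31 were below 0 (79.5%, against 51.1% of all tested genes), and the median was -0.08.

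**Figure D5:**
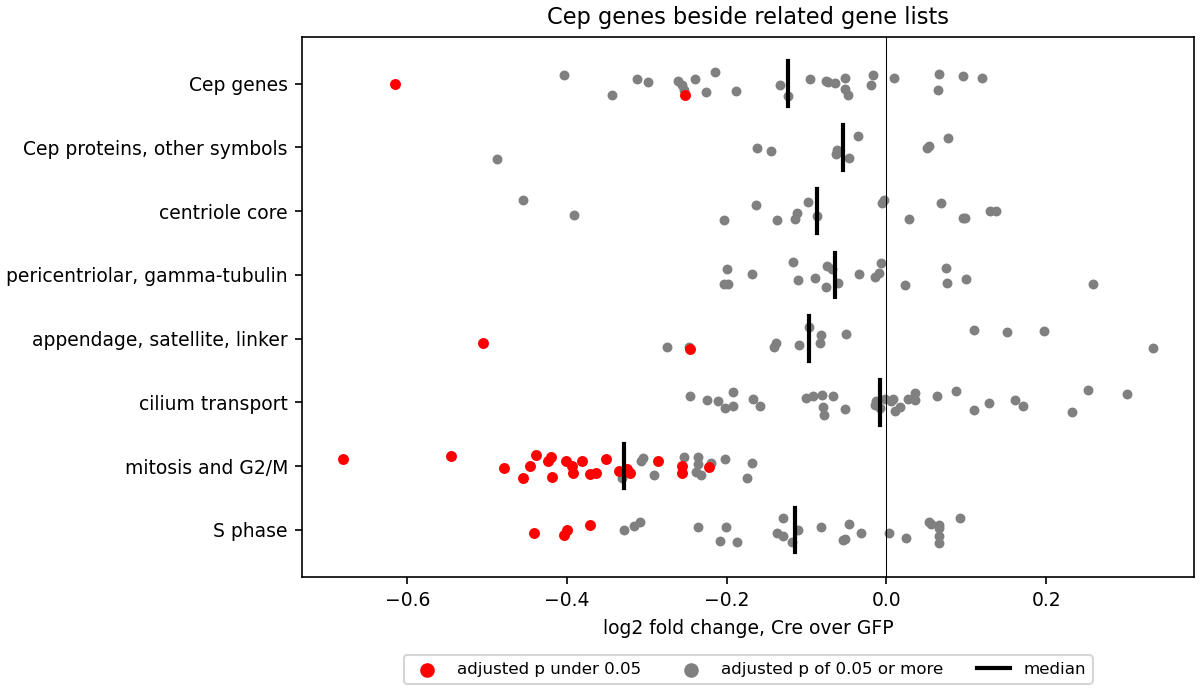
Log2 fold change of Cre over GFP (x axis) of single genes (points; red where the adjusted p is under 0.05) with list medians (black bars), for the Cep genes and related lists (y axis). The mitosis list has a median of -0.33 with 23 of 36 genes in red, against -0.12 with 2 of 29 for the Cep genes.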

How the data were processed

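Per the labels' protocols, 4 libraries were made from total RNA with an Illumina TruSeq kit. The authors deposited a table of whole, unnormalized read counts per gene. The submitters' processing notes name HISAT2 as a tool and GRCm38 as the build. For the counting program, the annotation and the strand setting, each is not given in the sources used here.

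Counts were tested with edgeR 4.0.16 (quasi-likelihood F-test, group as the only term) in R 4.3.3. The steps were filterByExpr (minimum count 10, minimum total 15), TMM scaling, and Benjamini-Hochberg adjustment over 14483 genes with a threshold of 0.05. The prior degrees of freedom were 27.3. CPM are per TMM-scaled total of the counts in tested genes. Intervals cover the fitted spread at the 95% level. Lengths and GC content came from GENCODE M21 and positions from RefSeq. No library was a copy of another: the median chi-square between libraries of a group was 2.32 (GFP) and 1.77 (Cre) times what counting alone gives.

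The Cep genes, the lists and the motifs were chosen with earlier results of these data known. All Cep genes but 1, which enters the counts and medians and is not reported singly here, were named. Values per library are given for those called, for the 3 most abundant per kilobase and the 4 with the largest differences among the uncalled, and for others where the text turns on them (Cep152, Cep192, Cep57, Cep89 and Cep19, chosen after their values were seen). Up to 4 called genes were named per related list, or the 2 most abundant where none was called. The alternatives were other scalings, filters and tools (DESeq2 1.42.0, limma-voom with limma 3.58.1), robust dispersion, a replicate block, offsets for length and GC content, an adjusted p of 0.01, and each library left out. Offsets for length or GC content alone were added after seeing the data.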

Additional observations from a re-analysis of the deposited data

How the results depend on the processing

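All 29 Cep genes were fitted under each setting, but DESeq2 gave no adjusted p for 7 of them. The median of the Cep genes stayed below 0 (from -0.20 to -0.05), and no Cep gene was called higher. The number of genes called among all tested, 1009, was 530 with scaling by library size alone, 380 in DESeq2, 30 without a low-count filter and 477 at an adjusted p of 0.01. Leaving out 1 library gave 0 to 516, with 0 without GFP replicate 2, where 2197 genes had an unadjusted p under 0.05. The 2 Cep genes called lower were 1 with library size alone, 1 in DESeq2, 0 without a filter, 1 at an adjusted p of 0.01, and 0 to 2 with 1 library left out. The 23 mitosis genes called lower, a count whose alternatives were chosen after seeing the data, were 9, 8, 0 and 13 in the same order, and 0 to 11 with 1 library left out. The cause was not tested. Where 1 library remained in a group, it was assumed to vary as the other group does. With offsets for length alone the median of the Cep genes was -0.07, and for GC content alone it was also -0.07. The correlation with length was -0.05 with the mean over transcripts and -0.10 with the longest coding transcript.

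With the replicate number as a block, 829 genes were called, 2 Cep genes and 19 mitosis genes were lower, and the median of the Cep genes was -0.12. It changed no call among the Cep genes. The labels do not say that a number marks a shared culture. Differences between replicate 2 and replicate 1 had a correlation of -0.00886 between the groups over all tested genes and of 0.333 over the 29 Cep genes. Whether these values reflect a shared culture was not tested, and the block rests on a shared number only. The depth limits what can be seen for genes such as Cep112, at 21 to 26 counts.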
